A study of Mus musculus with 12 samples.

Results

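Toll-like receptor 4 (TLR4) detects lipopolysaccharide (LPS), the outer-membrane glycolipid of gram-negative bacteria, and macrophages are among the cells that depend on it most. CD14 captures LPS and hands it to MD-2, the product of Ly96, which sits on the receptor and holds the lipid. The receptor then signals through paired adaptors: TIRAP brings MyD88 to the membrane, and TRAM, the product of Ticam2, brings TRIF, the product of Ticam1. MyD88 assembles the IRAK kinases on the way to NF-kappaB, whereas TRIF leads to the kinase TBK1 and to type I interferon.

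The 10 genes described here are the co-receptors Cd14 and Ly96, the adaptors Myd88, Tirap, Ticam1 and Ticam2, and the kinases Irak4, Irak1, Irak2 and Irak3. Myd88 and Tirap lie on chromosome 9 and Cd14 and Ticam2 on chromosome 18, and the others on chromosomes 1 (Ly96), 6 (Irak2), 10 (Irak3), 15 (Irak4), 17 (Ticam1) and X (Irak1). They were taken by gene symbol from the deposited count tables, and all 10 were among the 16699 genes listed in both tables. The libraries came from J774A.1, a mouse macrophage cell line, and RNA was sequenced from 4 groups of 3 libraries: WT and ACAT1 KO cells without treatment, and both genotypes after LPS at 100 ng/ml for 2 hours. KO cells had been transfected with Cas9 and a guide against the fourth exon of Acat1, which encodes a mitochondrial enzyme at the distal end of fatty acid oxidation, and WT cells with the same vector lacking a guide, and clonal populations were then grown from both. The labels number the libraries 1 to 3 in each group. The study describes the untreated libraries as different lines of each genotype, but neither it nor the labels say whether a number is the same line with LPS, and p-values measure the spread between these libraries.

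Totals ran from 56948593 to 167280149 counts, and the 10 genes held between 358 and 150588 counts in a library. Acat1 was lower in KO than in WT in both states, by log2 fold changes of -1.87 without treatment and -2.08 with LPS, and LPS raised Tnf by 5.07 in WT and 4.95 in KO, so the genotype and treatment labels fitted the transcripts. Macrophage identity fitted as well, since all 8 macrophage markers (Adgre1, Cd68, Csf1r, Fcgr1, Itgam, Lyz2, Mpeg1 and Spi1) were measured, at a summed level of 9507 to 11986 CPM (counts scaled to the size of the library). Their summed range overlapped between the genotypes with LPS but not without, at 9607 to 10231 CPM in WT and 10338 to 11986 CPM in KO. Single markers differed between genotypes in both directions. Of the 8, Fcgr1 (log2 fold change -0.69) and Adgre1 (-0.78) were called lower in KO without treatment and none higher. With LPS Fcgr1 was called lower (-1.07) and Itgam (0.48) and Spi1 (0.26) higher. Of the other cell types, none of the 3 T cell and 4 epithelial markers was listed, Cd79a of the B cell list stayed under 1 CPM, and Pdgfra of the fibroblast list summed to between 1.14 and 13.0 CPM and was higher in KO with LPS (log2 fold change 0.99). The part of these markers in the results was not tested. The libraries of untreated WT numbers 1 and 2 and KO number 2 stood apart, with 0.0496% to 0.0733% of their counts on noncoding genes that lie in exons of the opposite strand, against 0.0193% to 0.0278% in the other libraries.

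The promoters of the genes that moved most are shown because 7 of the 10 genes rose together with LPS. RefSeq promoter windows on build GRCm38.p6, from 250 bases before a start site to 50 after it, were searched for 7 of the 10 genes. Promoters of Cd14, Ly96 and Ticam2 were not searched, so nothing is said of their patterns. The 7 genes held 10 windows in all. Each window was searched on both strands for a kappaB pattern (GGGA and TTCC with 2 bases of any kind between them), an interferon-response pattern (GAAA and GAAA spaced in the same way), an AP-1 pattern (TGANTCA, with N for any base) and a PU.1 pattern (GAGGAAGT). A single match was found among the 10 windows, so no matches overlapped. It was an interferon-response pattern on the coding strand of Myd88 that began 40 bases before the start, at position -40, and 3.44% of all 32851 promoter windows held that pattern. The kappaB, AP-1 and PU.1 patterns occurred in 1.47%, 7.81% and 3.20% of all windows and in none of these 10. The 250 bases upstream of the start are printed for Myd88, Irak2 and Irak3, which rose most, and for Tirap, which also differed between genotypes. Capitals mark the match, and of the 2 windows of Irak3 and of Tirap the one farther upstream is given. In GENCODE M21 the Myd88 gene reaches to base 119341411 of chromosome 9 and the Tirap gene to base 35200291. The printed windows of Myd88 and Tirap thus lie within the annotated genes.
Myd88, minus strand, chr9:119340019-119340268: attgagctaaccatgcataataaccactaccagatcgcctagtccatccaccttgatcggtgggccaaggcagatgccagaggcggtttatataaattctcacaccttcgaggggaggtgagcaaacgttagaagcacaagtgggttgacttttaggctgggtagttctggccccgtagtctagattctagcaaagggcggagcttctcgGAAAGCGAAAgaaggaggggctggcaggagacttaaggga
Irak2, plus strand, chr6:113638217-113638466: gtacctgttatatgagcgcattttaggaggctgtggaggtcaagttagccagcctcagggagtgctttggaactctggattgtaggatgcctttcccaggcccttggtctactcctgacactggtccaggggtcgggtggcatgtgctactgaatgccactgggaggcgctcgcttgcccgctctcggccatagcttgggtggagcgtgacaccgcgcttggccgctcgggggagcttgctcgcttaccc
Irak3, minus strand, chr10:120202131-120202380: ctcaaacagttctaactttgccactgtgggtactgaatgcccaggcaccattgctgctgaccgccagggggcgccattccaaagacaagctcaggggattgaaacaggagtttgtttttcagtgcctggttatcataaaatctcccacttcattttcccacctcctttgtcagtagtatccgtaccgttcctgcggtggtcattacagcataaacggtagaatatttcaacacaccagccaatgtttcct
Tirap, minus strand, chr9:35199966-35200215: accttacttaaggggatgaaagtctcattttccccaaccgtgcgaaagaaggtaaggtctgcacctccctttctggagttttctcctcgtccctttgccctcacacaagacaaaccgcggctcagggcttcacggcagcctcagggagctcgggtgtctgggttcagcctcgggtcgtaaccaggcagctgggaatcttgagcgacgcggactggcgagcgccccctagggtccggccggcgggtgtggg

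Message levels were compared between genes as CPM per kilobase of annotated exon, which does not measure the protein at each step. Cd14 was the most abundant of the 10 in every group, at 465 ± 36.8 CPM per kilobase (SD, n = 3) in untreated WT and 537 ± 30.4 in untreated KO, and no other gene reached its level. Irak1 followed in untreated WT at 28.3 ± 1.48, then Myd88 at 18.2 ± 0.54 and Irak2 at 14.6 ± 1.21 CPM per kilobase. Ly96 and Irak4 came next, and their libraries overlapped. Irak3 and Ticam1 also overlapped, as did Ticam1 and Tirap. Ticam2 was the least abundant at 2.07 ± 0.35 CPM per kilobase, with all 3 libraries below those of its neighbour Tirap. The order in untreated KO was the same except that Ticam1 stood above Irak3, and Tlr4 itself lay between Irak2 and Ly96 at 11.7 CPM per kilobase in WT and 11.4 in KO.

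With LPS the order changed. Myd88 moved to the place behind Cd14, at 103 ± 2.91 CPM per kilobase in WT and 105 ± 8.29 in KO, and Irak2 moved above Irak1, at 46.0 ± 0.63 against 24.7 ± 0.54 in WT. Irak3 passed Ly96, and only Ly96 and Ticam1 overlapped among neighbours in either genotype. Ticam2 fell to 0.77 ± 0.05 CPM per kilobase in WT and 1.00 ± 0.10 in KO. With the length of the longest transcript in place of all exons, Irak2 came before Myd88 in the untreated groups, with overlapping libraries, and Ticam2 came before Tirap in untreated KO, also with overlap. The order with LPS was the same by both lengths, but the neighbours that overlapped were then Irak3 and Ly96.

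The response to LPS was tested in a single fit of the 4 groups with edgeR's quasi-likelihood test and Benjamini-Hochberg adjustment over 16535 genes, with a call at an adjusted p under 0.05. All 10 genes were called in both genotypes, 7 higher and 3 lower with LPS. The background is high: 57.4% of all genes were called in WT and 60.7% in KO. In WT 29.3% of genes were called higher and 28.0% lower, and in KO 29.5% and 31.2%. The median log2 fold change of the 10 was 1.24 in WT and 1.08 in KO, beside -0.02 and -0.03 over all genes tested. Every one of the 10 had LPS libraries that did not overlap the untreated ones in either genotype, as did 61.0% of all genes in WT and 67.8% in KO. CPM are shares of a library, and in bulk samples a change in the number of cells that express a gene and in the RNA per cell cannot be told apart.

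**Figure D1:**
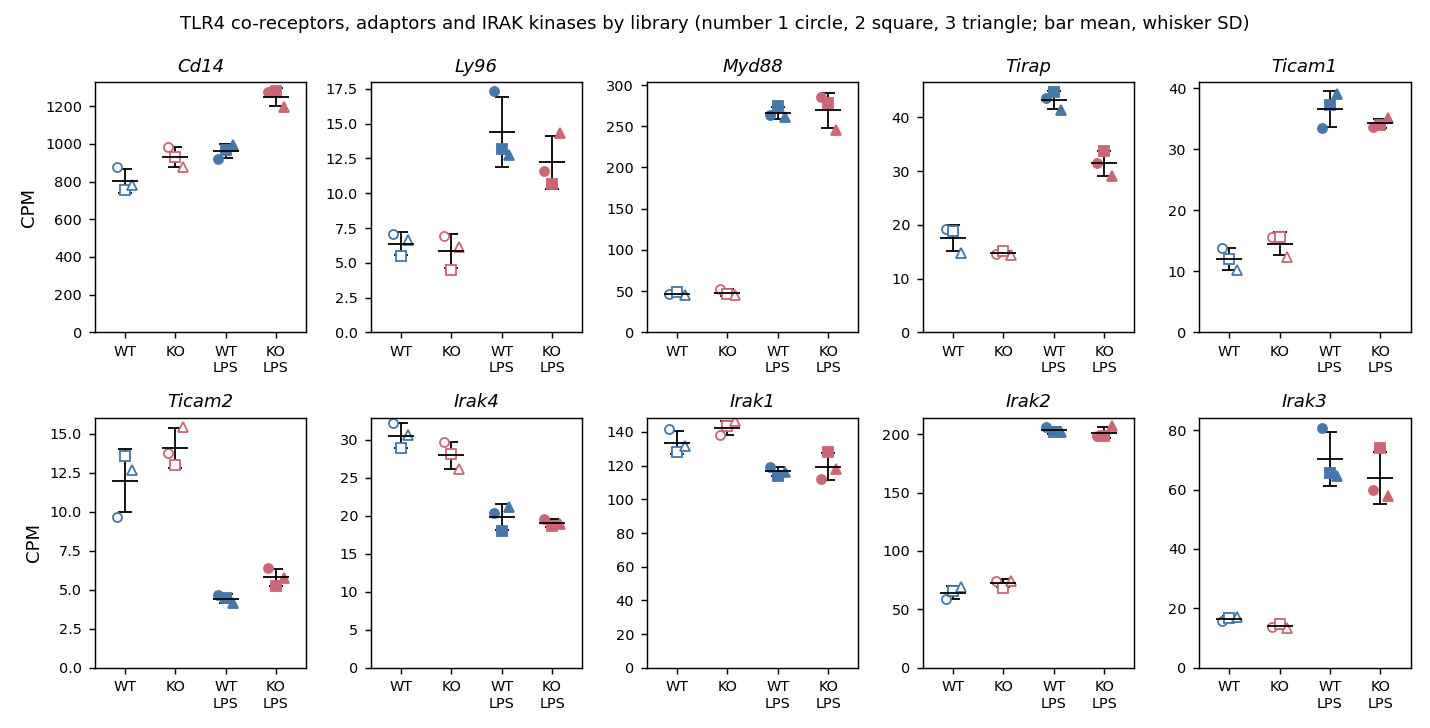
CPM (vertical axes, each from 0) of the 10 genes in the 12 libraries, with WT in blue, KO in red, untreated libraries open and LPS libraries filled; bars are group means and whiskers SD (n = 3). Myd88, Irak2 and Irak3 show the widest rises with LPS, Ticam2 and Irak4 fall, and the KO libraries with LPS lie above WT for Cd14 and Ticam2 and below WT for Tirap.

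On the receptor side, Ly96 rose and Cd14 moved little. Ly96 measured 7.05, 5.46 and 6.63 CPM in untreated WT and 17.3, 13.2 and 12.8 CPM with LPS. In KO it went from 6.91, 4.49 and 6.15 CPM to 11.6, 10.7 and 14.4 CPM. The lowest LPS library of Ly96 thus lay above the highest untreated one in both genotypes. Its log2 fold change was 1.18 ± 0.18 (SE) in WT and 1.06 ± 0.18 in KO, with adjusted p-values of 0.000140 and 0.000281.

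Cd14 measured 877, 756 and 782 CPM in untreated WT and 921, 969 and 995 CPM with LPS. In KO it went from 984, 929.6 and 879 CPM to 1276, 1280.0 and 1193 CPM. The untreated KO libraries spanned much of the range of the LPS-treated WT libraries. The log2 fold change of Cd14 was 0.26 ± 0.07 (SE) in WT and 0.42 ± 0.07 in KO, with adjusted p-values of 0.00866 and 0.000262. With upper-quartile normalization, which moved the median of all genes from -0.02 to -0.23 in WT and from -0.03 to -0.17 in KO, the log2 fold change of Cd14 in WT was 0.05 (adjusted p = 0.570) and its call was lost. A change of normalization shifts Cd14 and the median of all genes nearly alike. The value of Cd14 in WT relative to that median, 0.27 under either, was thus almost fixed and does not bear on the call. Tlr4, the receptor, fell with LPS by 1.32 on the log2 scale in WT and by 1.57 in KO, from 59.4 to 70.3 CPM in untreated WT to 24.8 to 27.6 CPM.

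Both adaptors of the MyD88 arm rose. Myd88 had the highest fold change of the 10, from 46.4, 48.4 and 45.7 CPM in untreated WT to 263, 275 and 261 CPM with LPS. In KO it went from 53.1, 46.0 and 45.7 CPM to 285, 278 and 245 CPM. That is a 5.69-fold rise in WT and a 5.59-fold rise in KO, with log2 fold changes of 2.51 ± 0.08 (SE) and 2.48 ± 0.08 and adjusted p-values of 4.52e-10 and 3.63e-10. Among the 10 windows of 7 genes reported above, only that of Myd88 held a match, the interferon-response pattern printed there. The part of this pattern in the rise was not tested. Tirap went from 19.2, 18.9 and 14.9 CPM to 43.7, 44.7 and 41.4 CPM in WT, and from 14.6, 15.2 and 14.5 CPM to 31.6, 33.8 and 29.1 CPM in KO. All LPS libraries of Tirap lay above all untreated ones, and those of KO lay below those of WT. Its log2 fold change was 1.30 ± 0.09 (SE) in WT and 1.09 ± 0.09 in KO.

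The adaptors of the TRIF arm moved in opposite directions. Ticam1 rose from 13.9, 11.96 and 10.3 CPM to 33.5, 37.3 and 39.1 CPM in WT, and from 15.7, 15.6 and 12.4 CPM to 33.7, 33.96 and 35.1 CPM in KO. Its log2 fold change was 1.61 ± 0.12 (SE) in WT and 1.23 ± 0.12 in KO. Ticam2, whose product carries TRIF to the receptor, fell from 9.69, 13.6 and 12.7 CPM to 4.67, 4.49 and 4.15 CPM in WT, and from 13.8, 13.0 and 15.5 CPM to 6.38, 5.24 and 5.74 CPM in KO. Every LPS library of Ticam2 was below every untreated library. Its level with LPS was 37.0% of the untreated level in WT and 41.1% in KO, with adjusted p-values of 1.78e-06 and 3.79e-06. Of the exon bases of Ticam2, 14.5% are shared on the same strand with Tmed7, a neighbour at 158 to 189 CPM over the 12 libraries, and reads there cannot be assigned with certainty. Tmed7 itself was not called with LPS, with log2 fold changes of 0.12 in WT and 0.09 in KO.

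**Figure D2:**
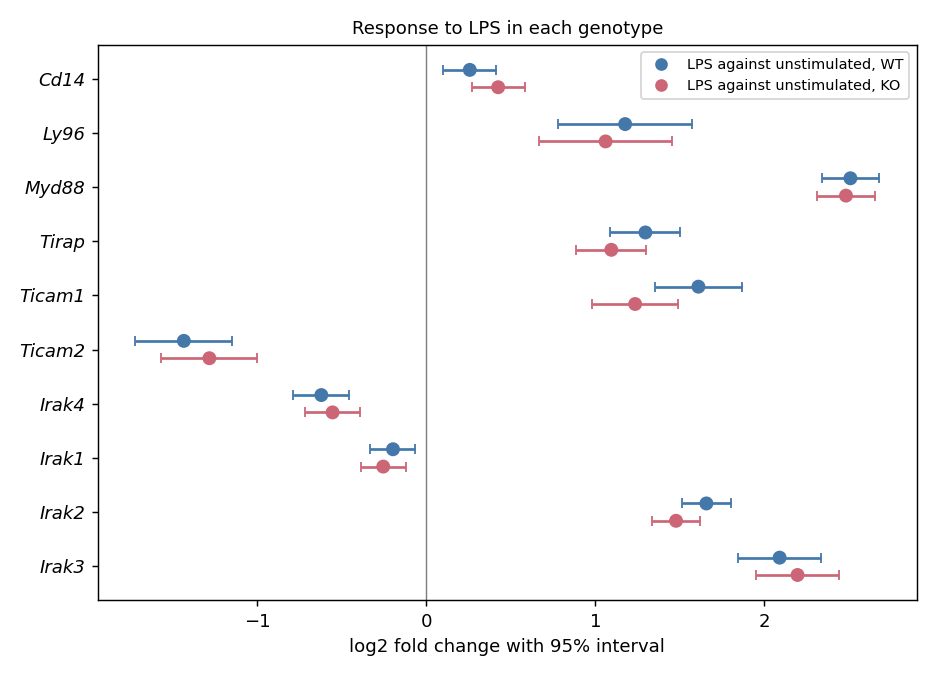
Log2 fold change with LPS (horizontal axis) of the 10 genes in WT (blue) and KO (red), as points with 95% intervals from the fit of 12 libraries. Myd88 is highest at 2.51 and 2.48 and Ticam2 lowest at -1.43 and -1.28, and the interval of every gene excludes 0.

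Among the kinases, Irak2 and Irak3 rose and Irak4 and Irak1 fell. IRAK4 is the kinase that MyD88 recruits first, IRAK1 and IRAK2 act after it, and IRAK3, also called IRAK-M, is known in macrophages as a brake on the pathway. Irak3 went from 15.6, 16.9 and 17.0 CPM to 80.8, 65.7 and 64.5 CPM in WT, and from 13.8, 14.8 and 13.2 CPM to 59.9, 74.1 and 57.9 CPM in KO. The rise was 4.26-fold in WT and 4.58-fold in KO, with log2 fold changes of 2.09 ± 0.11 (SE) and 2.20 ± 0.11. Irak2 went from 58.6, 65.8 and 68.9 CPM to 206, 201 and 202 CPM in WT, and from 74.2, 68.5 and 74.3 CPM to 199, 199 and 207 CPM in KO. The LPS libraries of Irak2 from both genotypes fell within a range of 198.5 to 207 CPM. Its log2 fold change was 1.66 ± 0.07 (SE) in WT and 1.48 ± 0.06 in KO.

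Irak4 fell from 32.1, 28.8 and 30.6 CPM to 20.4, 17.9 and 21.2 CPM in WT, and from 29.6, 28.1 and 26.1 CPM to 19.6, 18.6 and 18.9 CPM in KO. Its level with LPS was 65.0% of the untreated level in WT and 68.1% in KO. Irak1 went from 141, 128 and 131 CPM to 119, 114 and 116 CPM in WT, and from 138, 143 and 146 CPM to 112, 128 and 118 CPM in KO. These groups did not overlap, but the change was the smallest of the 10, at a log2 fold change of -0.20 ± 0.06 (SE) in WT (adjusted p = 0.0153) and -0.26 ± 0.06 in KO (adjusted p = 0.00321). In WT the call of Irak1 was lost without WT LPS number 2 (adjusted p = 0.0508), with a term for the 3 libraries that stood apart (0.0567) and with those 3 libraries left out (0.0705), an alternative chosen after the data were seen. The log2 fold changes under these alternatives were -0.18, -0.18 and -0.20. Exons shared with a gene on the opposite strand made up 11.3% of the bases of Myd88 (Acaa1a), 7.87% of Irak4 (Twf1), 5.99% of Irak3 (Tmbim4 and Gm47009) and 4.44% of Irak2 (Gm43963). Tmbim4 rose with LPS by 0.47 on the log2 scale in WT and by 0.37 in KO, and its part in the values of Irak3 was not tested.

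Set side by side per kilobase, the makeup of the IRAK messages changed with LPS. Irak1 made up 52.9% ± 2.34 (SD, n = 3) of the summed CPM per kilobase of the 4 kinases in untreated WT and 54.0% ± 1.29 in untreated KO. With LPS its share was 26.3% ± 0.53 in WT and 27.5% ± 0.75 in KO. Irak2 took the opposite course, from 27.3% ± 2.33 to 49.1% ± 1.24 in WT and from 29.3% ± 1.17 to 49.6% ± 2.33 in KO. Irak3 went from 8.40% ± 0.47 to 20.3% ± 1.81 in WT and from 6.79% ± 0.45 to 18.8% ± 1.93 in KO, and Irak4 from 11.4% ± 0.46 to 4.21% ± 0.34 and from 9.95% ± 0.71 to 4.12% ± 0.27. No library of one state overlapped one of the other for any of the 4. Over the 16 comparisons of a share, 10 reached p = 0.10 in the exact two-sided permutation test (adjusted p = 0.16), the smallest that 3 libraries against 3 allow, so no share could pass the threshold.

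**Figure D3:**
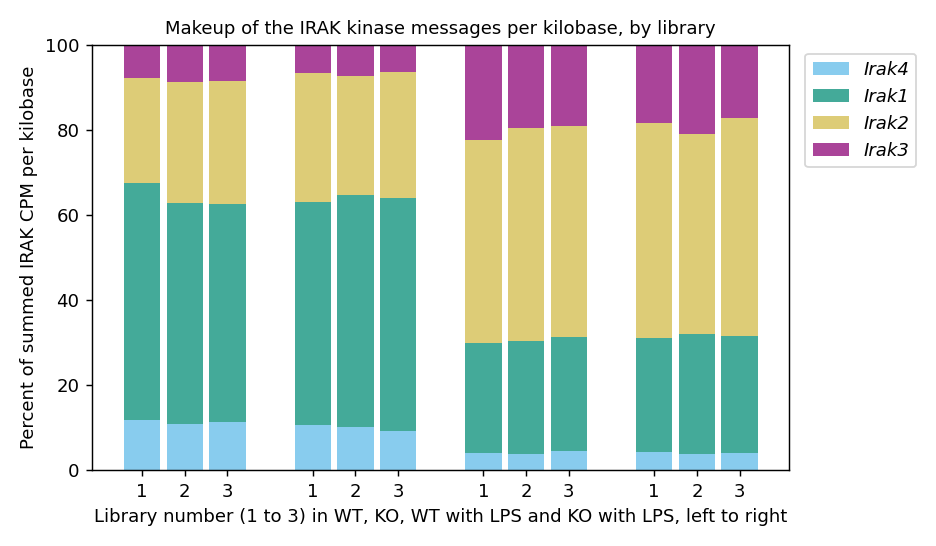
Percent of the summed CPM per kilobase of exon taken by each IRAK gene (vertical axis, stacked to 100) in each of the 12 libraries, grouped from left to right as WT, KO, WT with LPS and KO with LPS. Irak1 holds 51.4% to 55.6% in the untreated libraries and 25.8% to 28.2% with LPS, while Irak2 goes from between 24.6% and 30.2% to between 46.9% and 51.3%.

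The study compared ACAT1 KO with WT cells within each state, and the genotypes were tested here on the 6 libraries of a state. Without treatment none of the 10 genes was called by edgeR's quasi-likelihood test, DESeq2 or limma-voom, beside 1.91% of the 16440 genes tested with edgeR. Over all genes DESeq2 called 1721 and limma-voom 287. At an unadjusted p under 0.05 with edgeR, 2 of the 10 passed, Cd14 and Irak3, beside 19.7% of all genes. These were also the 2 whose groups did not overlap, beside 25.5% of all genes. The median log2 fold change of the 10 was 0.08, beside 0.00 over all genes.

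Cd14 was higher in KO without treatment by a log2 fold change of 0.22 (95% interval 0.02 to 0.42, adjusted p = 0.216), and the lowest KO library, at 879 CPM, lay just above the highest WT library, at 877 CPM. Irak3 had a log2 fold change of -0.23 (interval -0.42 to -0.04, adjusted p = 0.185). For the other 8 the interval held 0. It was narrowest for Irak1, at -0.05 to 0.25, and widest for Ly96, at -0.57 to 0.33. Values were also taken within the 3 libraries that stood apart (2 WT, 1 KO) and within the other 3 (1 WT, 2 KO). Their direction was common for 9 of the 10, Myd88 being the exception at -0.04 and 0.11. The share of all genes with a common direction was not computed. For Tirap the KO minus WT difference of mean log2 CPM was -0.33 in the libraries that stood apart and -0.03 in the others. For Ly96 it was -0.46 and -0.02. Each of these differences has a group of 1 library and thus no spread to judge it by. For Cd14 these values were 0.19 and 0.25.

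With LPS, 3 of the 10 were called between the genotypes, Cd14 and Ticam2 higher in KO and Tirap lower, beside 15.1% of the 16483 genes tested (5.93% higher and 9.12% lower). This background moved with the libraries used. The 2481 genes called fell to 1183 without WT number 2 and to 1020 without KO number 1. They fell to 867 without KO number 2 and to 1034 without KO number 3. The count changed less without WT number 1 (841 higher and 1404 lower) and without WT number 3 (915 and 1247). In each fit that left out a library, 2 or 3 of the 10 genes were called. The same 3 had an unadjusted p under 0.05, beside 31.3% of all genes, and they were the 3 whose groups did not overlap, beside 36.9%. The median log2 fold change of the 10 was -0.02, beside 0.00 over all genes.

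Cd14 was 1.32-fold higher in KO with LPS, at 1276, 1280.0 and 1193 CPM against 921, 969 and 995 CPM in WT. The gap between the lowest KO and the highest WT library was wider than the spread within either group. The log2 fold change was 0.40 ± 0.06 (SE), with a 95% interval of 0.26 to 0.54 and an adjusted p of 0.00736. Leaving out 1 library at a time kept the call in 6 of 6 fits, with log2 fold changes of 0.37 to 0.43.

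Tirap, the adaptor that brings MyD88 to the membrane, stood at 73.8% of its WT level in KO with LPS, at 31.6, 33.8 and 29.1 CPM against 43.7, 44.7 and 41.4 CPM. Its groups were separated by more than the spread within them. The log2 fold change was -0.44 ± 0.07 (SE), with an interval of -0.60 to -0.28 and an adjusted p of 0.00759, and the call was kept in 6 of 6 fits that left out 1 library. Of the exon bases of Tirap, 9.84% are shared on the opposite strand, in part with Srpr. The library kit keeps strand, but whether the counting used it is not given in the sources used here. Srpr was not called between the genotypes with LPS, with a log2 fold change of 0.06 (adjusted p = 0.562).

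Ticam2 was 1.32-fold higher in KO with LPS, at 6.38, 5.24 and 5.74 CPM against 4.67, 4.49 and 4.15 CPM, the lowest levels of the 10 genes. The log2 fold change was 0.41 ± 0.11 (SE), with an interval of 0.16 to 0.65 and an adjusted p of 0.0387. This call was lost in 5 of the 6 fits that left out 1 library: adjusted p was 0.0862 without WT number 2, 0.0920 without WT number 3, 0.121 without KO number 1, 0.0616 without KO number 2 and 0.103 without KO number 3. It was 0.0462 without WT number 1 and 0.0747 in the fit of all 12 libraries. With the library number as a block it was 0.0527, although numbers are not known to pair WT with KO libraries. The log2 fold change ranged from 0.33 to 0.47 over the fits that left out a library. Tmed7, which shares exon bases with Ticam2, had a log2 fold change of 0.07 (adjusted p = 0.351).

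**Figure D4:**
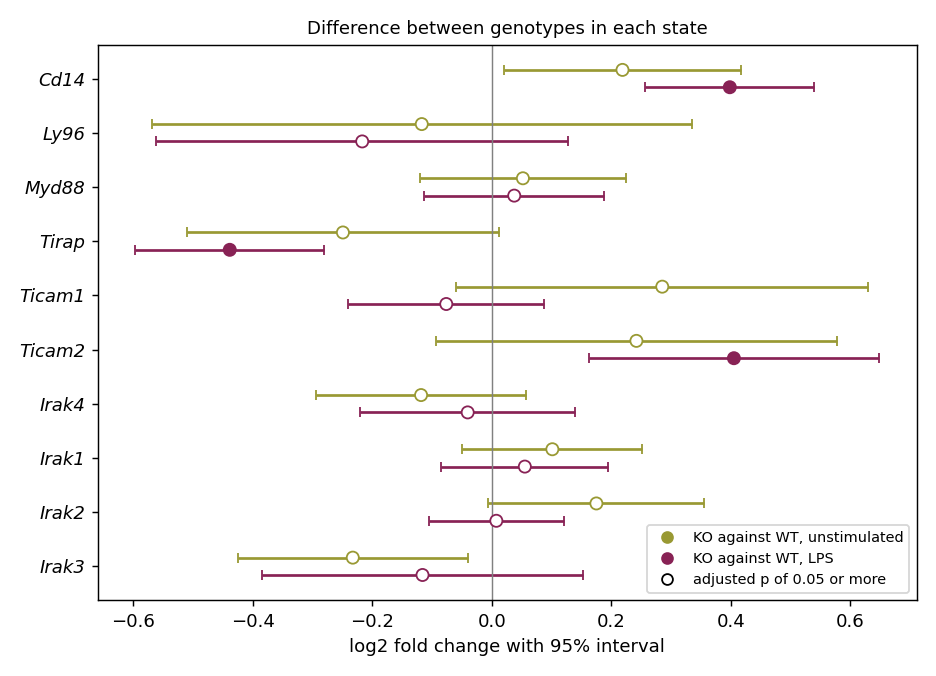
Log2 fold change of KO against WT (horizontal axis) for the 10 genes without treatment (olive) and with LPS (purple), as points with 95% intervals, filled where the adjusted p was under 0.05. The filled points are Cd14 at 0.40, Tirap at -0.44 and Ticam2 at 0.41, all with LPS.

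For the remaining 7 genes with LPS the interval of the genotype difference held 0. Myd88, the gene that LPS raised most, differed by 0.04 on the log2 scale (interval -0.11 to 0.19). Ticam1 differed by -0.08 (interval -0.24 to 0.09) and Ly96 by -0.22 (interval -0.56 to 0.13). The 4 kinases lay between -0.12 for Irak3 and 0.06 for Irak1, and the interval of Irak2 was -0.11 to 0.12. For Myd88, Irak4 and Irak2 the direction changed in 1 of the 6 fits that left out a library.

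Whether LPS changed these genes to a different extent in KO than in WT was tested by the interaction of genotype and LPS over all 12 libraries. None of the 10 was called by edgeR's quasi-likelihood test, DESeq2 or limma-voom, beside 0.187% of the 16535 genes tested with edgeR. Over all genes DESeq2 called 334 and limma-voom 11. At an unadjusted p under 0.05 with edgeR, 1 of the 10 passed, Ticam1, beside 8.92% of all genes. With the library number as a block the number of genes called over all genes went from 31 to 288, and none of the 10 was among them. The LPS response of Ticam1 was lower in KO by 0.37 on the log2 scale (interval -0.73 to -0.02, adjusted p = 0.521). The difference in response was 0.17 for Cd14 (interval -0.05 to 0.39), -0.20 for Tirap (interval -0.49 to 0.09) and 0.15 for Ticam2 (interval -0.25 to 0.55). For Myd88 it was -0.03 (interval -0.26 to 0.20). The calls of Cd14, Tirap and Ticam2 between genotypes with LPS are therefore not shown to be particular to the LPS state.

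The neighbouring steps of the pathway were read from 34 other genes, of which 33 were in both tables. In WT, 29 of the 33 were called with LPS, 19 higher and 10 lower, beside 57.4% of all genes, with a median log2 fold change of 0.41. In KO 25 were called, 19 higher and 6 lower, beside 60.7% of all genes, with a median of 0.34. All genes had medians of -0.02 and -0.03. Called or not, 20 had a positive and 13 a negative log2 fold change in either genotype. Of the 17 downstream ligases and kinases, 15 were called higher in both genotypes, beside 29.3% of all genes in WT and 29.5% in KO. Peli1, a ubiquitin ligase that acts on IRAK proteins, had the smallest p, with log2 fold changes of 4.92 in WT and 5.16 in KO, followed by Ikbke, an IKK-related kinase, at 2.62 and 2.38. Tab2, an adaptor of the kinase TAK1, came next in WT at 0.99, and Pik3ap1, an adaptor that links receptors to PI3-kinase, came next in KO at 2.12. Of the 6 receptor-side genes measured, 4 were called lower in WT and 3 in KO, beside 28.0% and 31.2% of all genes. Tlr4 was among them in both. In either genotype 5 of the 6 had a negative log2 fold change.

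Between genotypes, 2 of these 33 genes were called without treatment and 7 with LPS, beside the 1.91% and 15.1% of all genes given above. Both of the former fell in KO: Tab1, an activator of TAK1, by 0.58 on the log2 scale and Tbk1, the kinase downstream of TRIF, by 0.35. With LPS, 6 were lower in KO and 1 higher. The smallest p-values belonged to Traf3, a ubiquitin ligase of the TRIF arm, to Tbk1 and to Dok3, an adaptor that dampens TLR signals. Traf3 measured 84.0, 81.2 and 73.9 CPM in KO and 135, 123 and 114 CPM in WT with LPS, a log2 fold change of -0.62 (adjusted p = 0.00373). Tbk1 measured 144, 139.6 and 134 CPM against 199, 188 and 177 CPM, a change of -0.41 (adjusted p = 0.00628). Dok3 changed by -0.40 (adjusted p = 0.00663). These 3 were picked for their small p in this same comparison. Their KO libraries all lay below the WT libraries, and the groups did not overlap for 36.9% of all genes. Tlr4 was lower in KO with LPS, at 20.1, 22.7 and 21.3 CPM against 24.8, 25.6 and 27.6 CPM, by 0.26 on the log2 scale (adjusted p = 0.0477), and did not differ beyond its spread without treatment (log2 fold change -0.02, adjusted p = 0.905). None of the 33 was called in the interaction by edgeR, and 6 had an unadjusted p under 0.05, beside the 0.187% and 8.92% of all genes given above.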

How the data were processed

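RNA-seq libraries of WT and ACAT1 KO J774A.1 cells, untreated or treated with LPS, were grouped by title, genotype and treatment in the labels. According to the methods of the study, the authors used Trimmomatic 0.33 for trimming, HISAT2 with GRCm38 for alignment and StringTie for quantification. The values used here are deposited raw counts (whole numbers, not normalized), in 1 table per state; the step that gave whole counts, and its use of strand, are not given in the sources used here. Left unused were 12 columns of log2 values, 1 for each library, and columns of the authors' own comparison (log fold change, t, p, adjusted p and B).

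Repeated entries (59 and 57) were removed. KO was tested against WT on the 6 libraries of a state with edgeR 4.0.16 (R 4.3.3; filterByExpr, TMM, quasi-likelihood, two-sided, Benjamini-Hochberg over all genes tested). LPS responses and the interaction came from 1 fit of the 4 groups over the 16699 genes in both tables. CPM are TMM-scaled. Lengths and exon overlaps came from GENCODE M21, which 18231 of 18719 identifiers matched with their version. The fits were also run on simulated data. Every simulated gene had the same spread, smaller than the common spread of the untreated libraries, so no judgement of the calls rests on it. Libraries were marked as standing apart above 1.5 times the median opposite-strand share, a limit set after the data were seen.

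Alternatives were RLE and upper-quartile normalization, DESeq2 1.42.0, limma-voom 3.58.1, no filter, a replicate block, other sets of libraries, an unadjusted p under 0.05 (the study's threshold) and the longest transcript. For the block over all 12 libraries, an untreated library was taken as paired with the LPS library of its number and genotype. The labels do not state this pairing. Over 11961 genes, deviations from group means correlated by 0.14 to 0.45 in all 6 such pairs. Libraries of a genotype with unlike numbers correlated by -0.34 to 0.10. The 10 genes and the lists were chosen with earlier results of these data known. Beside the 10, the text names Tlr4, at most 3 called genes of the pathway list per comparison, genes that check labels or share exons, and the 3 genes most correlated with each gene called between genotypes. Intervals cover the spread between libraries; the fewest counts of any of the 10 genes in a library were 358.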

Additional observations from a re-analysis of the deposited data

How the results depend on the processing

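Over the 10 genes and 5 comparisons, 1010 alternative values were computed: 978 kept the direction and the side of the threshold, 11 lost a call, 3 gained one and 18 changed sign, none of them a called value. At an unadjusted p under 0.05 the genes called went from 0 to 2 of 10 without treatment and from 0 to 1 in the interaction, since that threshold is looser by construction. Sign changes without a call, of which the cause was not tested, were these. In the fit of all 12 libraries Irak2 with LPS was -0.0133 for KO against WT. In the interaction Ly96 was 0.00274 with the term for the libraries that stood apart and 0.0557 without both KO libraries of number 1. Myd88 was 0.0343 with upper-quartile normalization and 0.00554 without both KO libraries of number 1, and Irak1 was 0.00145 with upper-quartile normalization. Leaving out 1 library at a time gave, for KO against WT without treatment, -0.268 to 0.0409 for Ly96 and -0.0360 to 0.0913 for Myd88. With LPS it gave -0.00280 to 0.104 for Myd88, -0.105 to 0.0199 for Irak4 and -0.00916 to 0.0198 for Irak2. In the interaction it gave -0.271 to 0.0361 for Ly96, -0.0688 to 0.0481 for Myd88, -0.000641 to 0.117 for Irak4 and -0.0137 to 0.217 for Irak3. The replicate block left the call of Ticam2 between genotypes with LPS at an adjusted p of 0.0527 (log2 fold change 0.40); numbers are not known to pair WT with KO libraries, and the block changed no other call of the 10 genes. Upper-quartile normalization called 3628 genes higher and 6681 lower with LPS in WT, against 4850 and 4638. Over all genes the count of calls without treatment went from 314 to 1721 with DESeq2, 151 with the block and 7 to 522 with 1 library left out, and that with LPS from 2481 to between 867 and 2245 with 1 library left out. In the interaction it went from 31 to 334 with DESeq2, 11 with limma-voom and 2 to 41 with 1 library left out. No term for libraries that stood apart applied to the LPS state. The longest transcript moved 30 of 40 group levels per kilobase by over 1 SD.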

Other observations

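For the 3 genes called between genotypes with LPS, the genes with the most similar pattern were found by Pearson's r of log2 CPM over the 12 libraries, among 11960 genes with a mean of at least 1 CPM. The 12 libraries fall into treated and untreated groups, so r reflects that split, and it is a description without a test. Cd14 was most like Rrbp1 (r = 0.966), Tmed5 (0.955) and Ebi3 (0.948). Rrbp1 measured 327 ± 2.58 CPM (SD, n = 3) in untreated WT, 379 ± 15.2 in untreated KO, 388 ± 26.3 in WT with LPS and 494 ± 29.9 in KO with LPS. Ebi3, a subunit of interleukin-27, measured 44.9 ± 5.42, 57.7 ± 2.71, 88.5 ± 10.1 and 154 ± 8.62 CPM in that order.

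Tirap was most like Myo1e (r = 0.994), Gatad2a (0.994) and Mfn2 (0.993). Myo1e, a class I myosin, measured 67.8 ± 9.29 CPM in untreated WT, 57.0 ± 1.90 in untreated KO, 278 ± 22.5 in WT with LPS and 162 ± 4.45 in KO with LPS. Ticam2 was most like Kcnj2 (r = 0.984), Zfp503 (0.979) and Gm37145 (0.978). Kcnj2, a potassium channel, measured 26.0 ± 4.08, 29.4 ± 1.70, 10.3 ± 0.51 and 13.6 ± 1.77 CPM in that order.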
